A study of Nothobranchius furzeri with 25 samples.

Results

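Heme is the iron-holding group of hemoglobin and of many enzymes of every cell. Its synthesis starts with 5-aminolevulinate synthase, which exists as a housekeeping form, ALAS1, and as a form of developing red blood cells, ALAS2, and goes on with aminolevulinate dehydratase, ALAD. At the other end of the pathway, heme is opened to biliverdin, which biliverdin reductases turn into bilirubin. BLVRA and BLVRB are named as such reductases. BPGM, bisphosphoglycerate mutase, makes the 2,3-bisphosphoglycerate that in mammals loosens the hold of hemoglobin on oxygen. The red blood cells of fish keep their nucleus and contain RNA, so that a whole brain with the blood in its vessels can hold transcripts of both kinds of cell.

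These 6 genes were followed with age in the turquoise killifish (Nothobranchius furzeri). The animals were untreated males of MZM 04/10, a strain that descends from wild fish, and were killed at 5, 12, 20, 27 or 39 weeks. Each age had 5 animals, and the whole brain of each gave its own library, which makes 25 libraries. The 6 are called heme genes here, and BPGM is counted with them although it neither makes nor breaks down heme. They are all such genes among the names from A to C1QL4 that could be tied to a contig, a stretch of assembled transcript. The 6 are part of the 18228 contigs of the count table. Each is the only contig with its zebrafish ortholog and is marked as a best bidirectional hit. The other enzymes of the pathway and heme oxygenase lie outside these names and were not analysed here. Levels are counts per 1000000 counts of the normalized library (CPM), given as mean ± SD with n = 5 per age.

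Libraries held 15690560 to 26378519 counts, and the 6 genes had between 78 and 74637 counts per library. The median log2 change of all genes was at most 0.02 in size in each comparison, which the normalization of the libraries brings near 0 by itself. Changes are given as they stand, and a shift shared by most genes would not be seen in them. All 7 neuronal and glial markers checked had counts in every library, and their summed level lay between 2827 and 4755 CPM. This sum was lower in the oldest brains, with 3862 to 4340 CPM at 5 weeks and 2827 to 3588 CPM at 39 weeks. Neuronal genes make up most of it, with means at 5 weeks of 1812 CPM for ATP1A3B and 1112 CPM for BASP1. The glial genes ASPA (26.3 CPM) and AQP4 (2.66 CPM) add little. In edgeR 3 of the 7 were lower at 39 than at 5 weeks, while ASPA was higher (log2 fold change 1.14, adjusted p = 5.8e-05). AQP4 was not called (0.11, adjusted p = 0.67). The 7 genes listed for red blood cells were also detected in each of the 25 libraries, and among them BA1, a beta globin, is the defining marker. The other 6 are also expressed by other cells, such as ADD2 and the ANK1 contigs, adapters of the membrane skeleton, by neurons. In edgeR's test from 5 to 39 weeks ANK1 (1 OF 2) was lower, as BA1 was, and ART4 was higher. The rest of these markers were not called (given with the other cell markers at the end). From 12 to 39 weeks ANK1 (1 OF 2) and ANK1 (2 OF 2) were lower (adjusted p = 0.0075 and 0.0195), and BA1 was not called. In whole tissue, fewer cells of a type and less RNA per cell cannot be told apart.

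ALAS2 fell with age. In the 5 brains of 5 weeks (contig Nofu_gene_3_0000608) its level was 23.2, 26.8, 28.5, 28.8 and 36.2 CPM. At 12 weeks it was 12.8, 21.2, 23.0, 28.3 and 40.2 CPM, and at 20 weeks 8.45, 12.9, 14.6, 17.0 and 24.1 CPM. The values scattered widely from 12 weeks on, and the brains of 12 weeks lay both below and above those of 5 weeks. At 27 weeks the levels were 6.63, 7.95, 10.5, 10.5 and 21.6 CPM, and in the oldest brains, of 39 weeks, 6.12, 6.61, 8.37, 8.66 and 20.7 CPM. All brains of 27 and 39 weeks lay below all those of 5 weeks. The share of all genes whose ages separate in this way was not computed, here or for the genes below. At each of the 2 oldest ages 4 brains formed a low group, and 1 brain, JM69 at 27 and JM18 at 39 weeks, had about the level of a younger one.

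**Figure D1:**
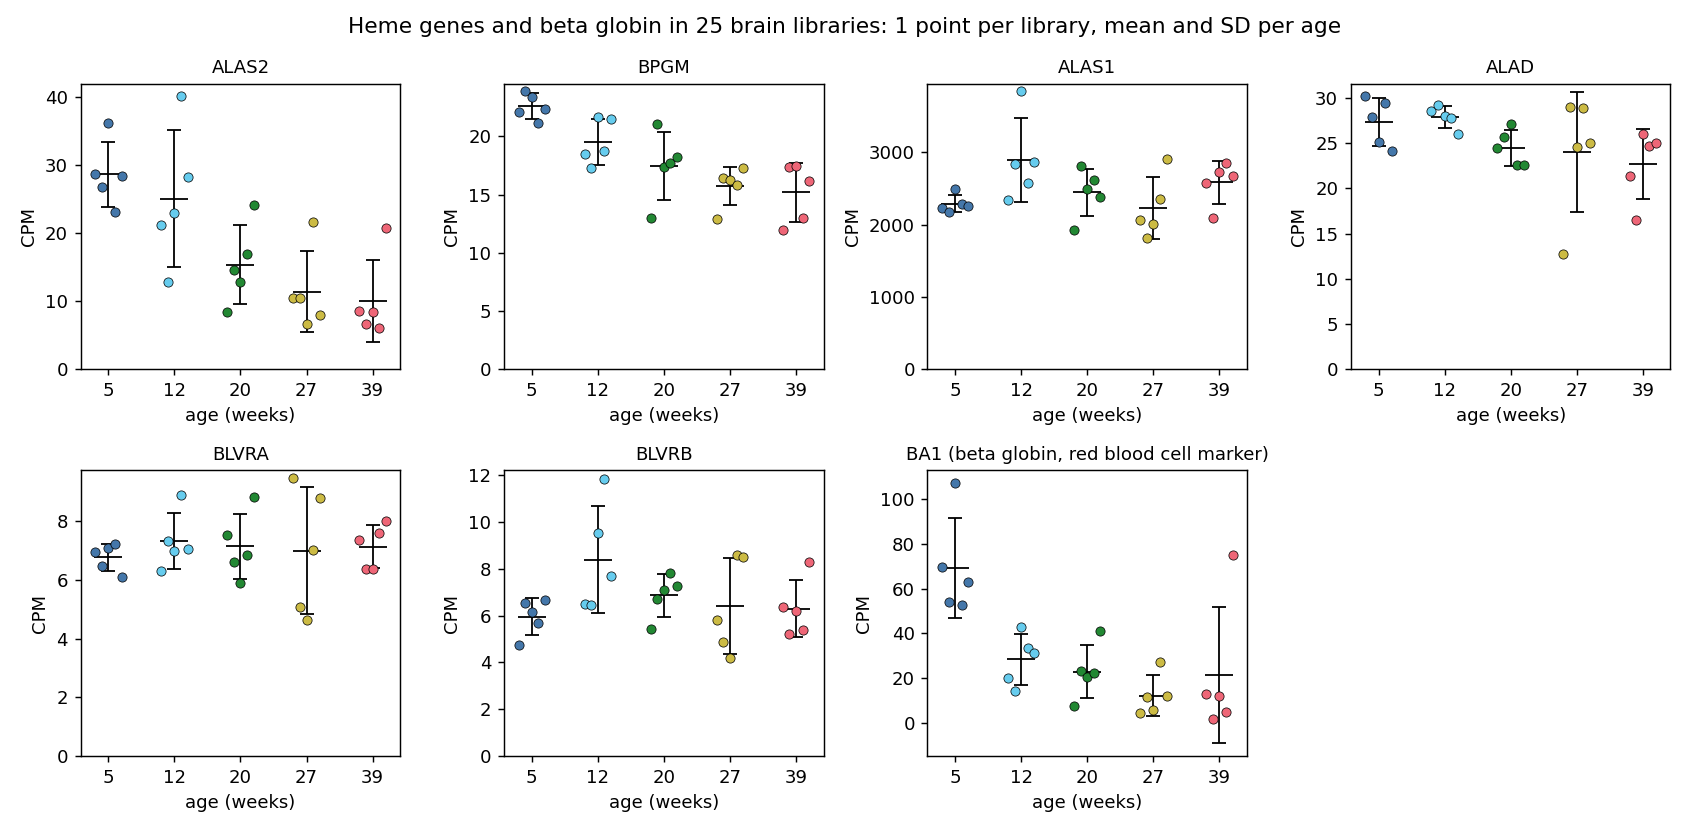
Level (CPM) of the 6 heme genes and of the beta globin BA1 against age in weeks, with 1 point per library and a bar for mean ± SD of 5 libraries. ALAS2 goes from 28.7 to 10.1 CPM and BPGM from 22.6 to 15.2 CPM between 5 and 39 weeks, with no overlap of these 2 ages, while the ages overlap for ALAS1, ALAD, BLVRA and BLVRB. The share of all genes without overlap was not computed.

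The mean of ALAS2 fell by 64.8% over the whole span, from 28.7 ± 4.74 CPM at 5 weeks to 10.1 ± 6.04 CPM at 39 weeks. On the log2 scale the change was -1.50 with a standard error of 0.35 (adjusted p = 0.0017, edgeR's quasi-likelihood test over 16484 genes). The fall from 5 to 27 weeks was of -1.32 (standard error 0.35, adjusted p = 0.0046). These 2 calls held whichever of the 25 libraries was left out, with adjusted p up to 0.0166, and without JM18 the log2 fold change to 39 weeks was -1.95. Between 5 and 12 weeks, by contrast, the log2 fold change was -0.19 ± 0.34 (SE, adjusted p = 0.72). From 12 to 39 weeks ALAS2 fell by 1.31 on the log2 scale (standard error 0.35, adjusted p = 0.0179), a call that was lost without JM109 of 12 weeks (adjusted p = 0.0563), JM12 (0.0557) or JM15 (0.0532) of 39 weeks. Over the 20 brains of 12 to 39 weeks the slope was -0.48 per 10 weeks (standard error 0.13, adjusted p = 0.0274). It was past the threshold in 15 of the 20 fits with 1 library left out, and not without JM104, JM109, JM1, JM12 or JM15 (adjusted p 0.0504 to 0.0719). The step from 5 to 20 weeks was close to the threshold (-0.90, adjusted p = 0.0472) and was lost in 15 of 25 such fits, with adjusted p up to 0.12.

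BPGM fell less, and with a smaller scatter. Its levels at 5 weeks (Nofu_gene_3_0001749) were 21.2, 22.1, 22.3, 23.4 and 23.9 CPM, and at 12 weeks 17.2, 18.5, 18.8, 21.5 and 21.6 CPM. The brains of 20 weeks had 13, 17.3, 17.7, 18.2 and 21.1 CPM, those of 27 weeks 12.9, 15.8, 16.3, 16.4 and 17.3 CPM, and those of 39 weeks 12.0, 13, 16.1, 17.4 and 17.5 CPM. The brains of 20, 27 and 39 weeks all lay below those of 5 weeks. From 5 to 39 weeks the mean fell by 32.8%, a log2 fold change of -0.57 ± 0.12 (SE, adjusted p = 0.00059), and from 5 to 27 weeks the log2 fold change was -0.52 (adjusted p = 0.0015). Both calls held without any one library. The step from 5 to 12 weeks was of -0.21 ± 0.12 (SE, adjusted p = 0.2), and that from 5 to 20 weeks of -0.37 (adjusted p = 0.0187, or 0.063 without JM75). The difference between 12 and 39 weeks was of -0.36 (adjusted p = 0.0459), just past the threshold, and was lost in 14 of 25 fits with 1 library left out (adjusted p up to 0.133). The adult slope of -0.13 per 10 weeks did not pass in edgeR (adjusted p = 0.062), and did in DESeq2 (0.0337) and without JM75 (0.0302) or JM13 (0.0406).

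ALAS1 starts heme synthesis in cells of every kind. Its contig held 0.187 to 0.368% of all counts and stood 6th of the 18228 contigs by mean CPM, without correction for contig length. Its levels at 5 weeks (Nofu_gene_3_0000607) were 2175, 2229, 2262, 2283 and 2493 CPM, and those of the next age, 12 weeks, 2340, 2572, 2840, 2862 and 3844 CPM. At 39 weeks they were 2093, 2568, 2677, 2727 and 2847 CPM. The ages overlapped, and 4 of the 5 brains of 12 weeks lay above all those of 5 weeks. The mean of 12 weeks was 26.4% above that of 5 weeks, which did not pass the test in edgeR (log2 fold change 0.34 ± 0.13, SE, adjusted p = 0.0563) and passed in DESeq2 (adjusted p = 0.04) and without JM104, JM109, JM75, JM72 or JM12 (0.0306 to 0.0489). Between 12 and 27 weeks the log2 fold change was -0.38 (unadjusted p = 0.0071, adjusted p = 0.272), and between 5 and 39 weeks it was 0.17 ± 0.13 (SE, adjusted p = 0.298). Over all ages together ALAS1 missed the threshold (adjusted p = 0.092), which it passed without JM104 (0.0482) or JM72 (0.0197).

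ALAD, the enzyme that joins the products of ALAS1 and ALAS2 into porphobilinogen (Nofu_gene_3_0000606), had 27.3 ± 2.66 CPM in the youngest brains, 27.9 ± 1.23 CPM at 12 weeks and 22.7 ± 3.86 CPM in the oldest. Its 5 levels at 39 weeks were 16.6, 21.4, 24.7, 25.0 and 26 CPM, of which 4 lay below all those of 12 weeks. The log2 fold change from 5 to 39 weeks was -0.26 ± 0.15 (SE, adjusted p = 0.179). A library of 27 weeks, JM52, held 12.7 CPM against 24.6 to 28.9 CPM in the other 4, and without it the same log2 fold change passed (adjusted p = 0.0424).

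The biliverdin reductases were read at a low depth, with 78 to 259 counts per library. BLVRA (Nofu_gene_3_0001683) had the flattest profile of the 6, with age means between 6.76 and 7.32 CPM, single libraries between 4.63 and 9.48 CPM and an adjusted p of 0.97 for age as a whole. The log2 fold change from 5 to 39 weeks was 0.08 with a standard error of 0.16. BLVRB, which also reduces flavins (Nofu_gene_3_0001684), had 4.76, 5.67, 6.17, 6.54 and 6.64 CPM at 5 weeks and 6.43, 6.48, 7.71, 9.52 and 11.8 CPM at 12 weeks. Its mean at 12 weeks was 40.8% above that of 5 weeks, with overlap, a log2 fold change of 0.49 ± 0.20 (SE) and an adjusted p of 0.07 (0.0492 without JM104). At 39 weeks it was back at 6.29 ± 1.23 CPM, a log2 fold change of -0.41 from 12 weeks (adjusted p = 0.164).

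Counted over the 6 genes, 2 were lower at 39 than at 5 weeks and none higher, where 18.7% of all 16484 genes tested were called lower in that comparison and 36.9% in either direction. The count was also 2 of 6, both lower, from 5 to 20 weeks, where 16.6% of all genes were lower and 32% called in all, and from 5 to 27 weeks, where these shares were 18.7% and 35.6%. From 12 to 39 weeks 2 of 6 were lower, against 6.8% of all genes lower and 12.6% called in all. In the adult slope 1 of 6 was lower, against 4.63% of all genes lower and 8.16% called in all. Over all ages together 2 of 6 were called, against 42.1% of all genes. From 5 weeks to 20, 27 or 39 weeks, 2 of 6 is therefore near the share of all genes called in either direction, and above the share called lower. With 6 genes no more than this can be read from the counts. In each of these comparisons the genes called were ALAS2 and BPGM, or ALAS2 alone in the adult slope. None of the 6 passed from 5 to 12 weeks, where 23.8% of all genes did. In that step ALAS1 and BLVRB were the 2 with an unadjusted p under 0.05, and ALAS1 was the 1 gene called by DESeq2. How large a share of all genes DESeq2 called was not computed. With edgeR or DESeq2 none of the 6 passed in the remaining comparisons of adult ages, where edgeR called 0.0546% of all genes from 12 to 20 weeks, 0.0303% from 12 to 27, 0% from 20 to 27, 0.273% from 20 to 39 and 1.07% from 27 to 39 weeks. At an unadjusted p under 0.05 there were 1 of 6 from 12 to 20 weeks, 3 of 6 from 12 to 27 weeks and 0 in the other 3. The share of all genes at an unadjusted p under 0.05 was not computed for any comparison. Counts at that threshold therefore cannot be set against it, and the shares given above are of adjusted p. The medians of the log2 fold changes of the 6 genes were -0.09 from 5 to 39 and -0.33 from 12 to 39 weeks, beside 0.01 for all genes in both.

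**Figure D2:**
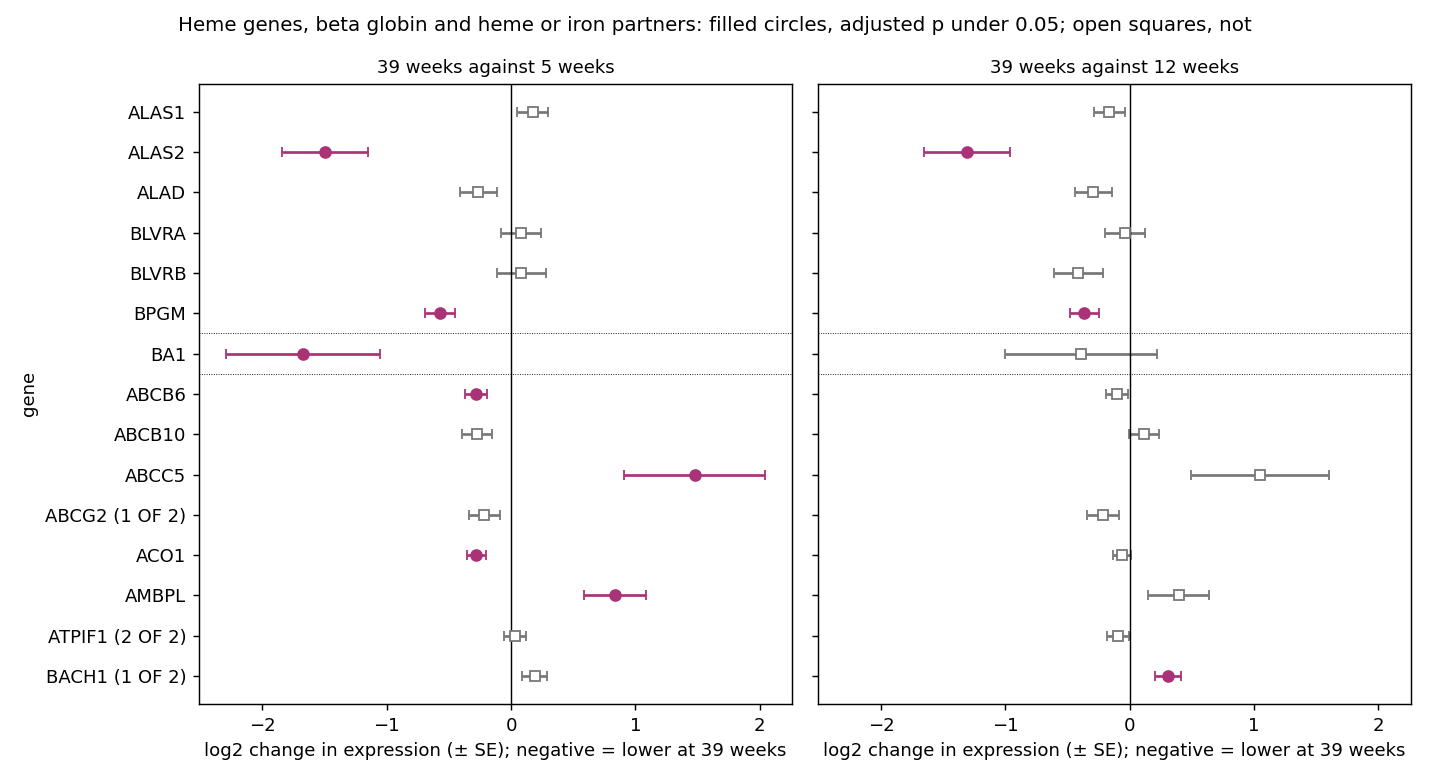
Log2 change in expression (points, with bars of ± 1 standard error) of the 6 heme genes, BA1 and 8 heme or iron partners, for 39 weeks against 5 weeks (left) and against 12 weeks (right). Filled circles passed an adjusted p of 0.05 in edgeR and open squares did not: among the heme genes ALAS2 (-1.50 and -1.31) and BPGM (-0.57 and -0.36) are filled in both panels.

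BA1, the beta globin, was measured beside these changes as the defining marker of red blood cells (Nofu_gene_3_0001473). In the youngest brains it stood at 52.6, 54.1, 62.8, 69.4 and 107 CPM, and at 12 weeks at 14.5, 20.0, 31.4, 33.5 and 42.9 CPM. At 39 weeks it stood at 2.14, 5.00, 12.0, 13.1 and 75.0 CPM, the last in JM18, the library that was also high in ALAS2. Every brain of 12, 20 and 27 weeks lay below every brain of 5 weeks, and at 39 weeks all but JM18 did. The log2 fold change from 5 to 12 weeks was -1.28 (SE 0.61, adjusted p = 0.134, or 0.0434 without JM18). To 20 weeks it was -1.59, also not called (adjusted p = 0.0532), and it passed in 6 of 25 fits with 1 library left out. It was -2.48 from 5 to 27 weeks (adjusted p = 0.0044) and -1.67 from 5 to 39 weeks (SE 0.62, adjusted p = 0.0373). Without JM18 the last was -3.11, and it was lost without JM100 or JM103 of 5 weeks or without JM1, JM12, JM13 or JM15 of 39 weeks (adjusted p 0.0554 to 0.0896) and without the 6 libraries marked w0w1 in their titles (0.0666). From 12 to 39 weeks BA1 changed by -0.39 with all libraries (adjusted p = 0.72) and by -1.83 without JM18 (adjusted p = 0.0243). JM18 thus decides whether BA1 was called from 12 to 39 weeks, and likewise in the adult slope (adjusted p = 0.68, or 0.0272 without JM18). Its library held 23985244 counts, and why it was high in BA1 was not tested.

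Among animals of the same age, ALAS2 followed BA1. After the mean of each age was taken out, log2 CPM of the 2 genes correlated over the 25 libraries with Pearson's r = 0.818 and Spearman's rho = 0.742 (permutation within ages, 100000 resamples, p = 4e-05 and 0.00019, adjusted over 21 pairs 0.00084 and 0.004). Without JM18 and JM69, the libraries farthest from the median of ALAS2, r was 0.7, and after the 6 marked libraries were left out it was 0.846 (adjusted p = 0.0468). There are 1 or 2 marked libraries per age, too few for a value of their own. Over all ages, without centring, r was 0.886. High libraries in both genes were JM18 at 39, JM69 at 27 and JM86 at 20 weeks, and low in both were JM105 at 12 and JM75 at 20 weeks. Others did not go together. JM52 at 27 weeks lay -1.15 from the age mean in BA1 and 0.004 in ALAS2 (log2 CPM). JM107 at 12 weeks lay 0.69 from it in BA1 and -0.03 in ALAS2.

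**Figure D3:**
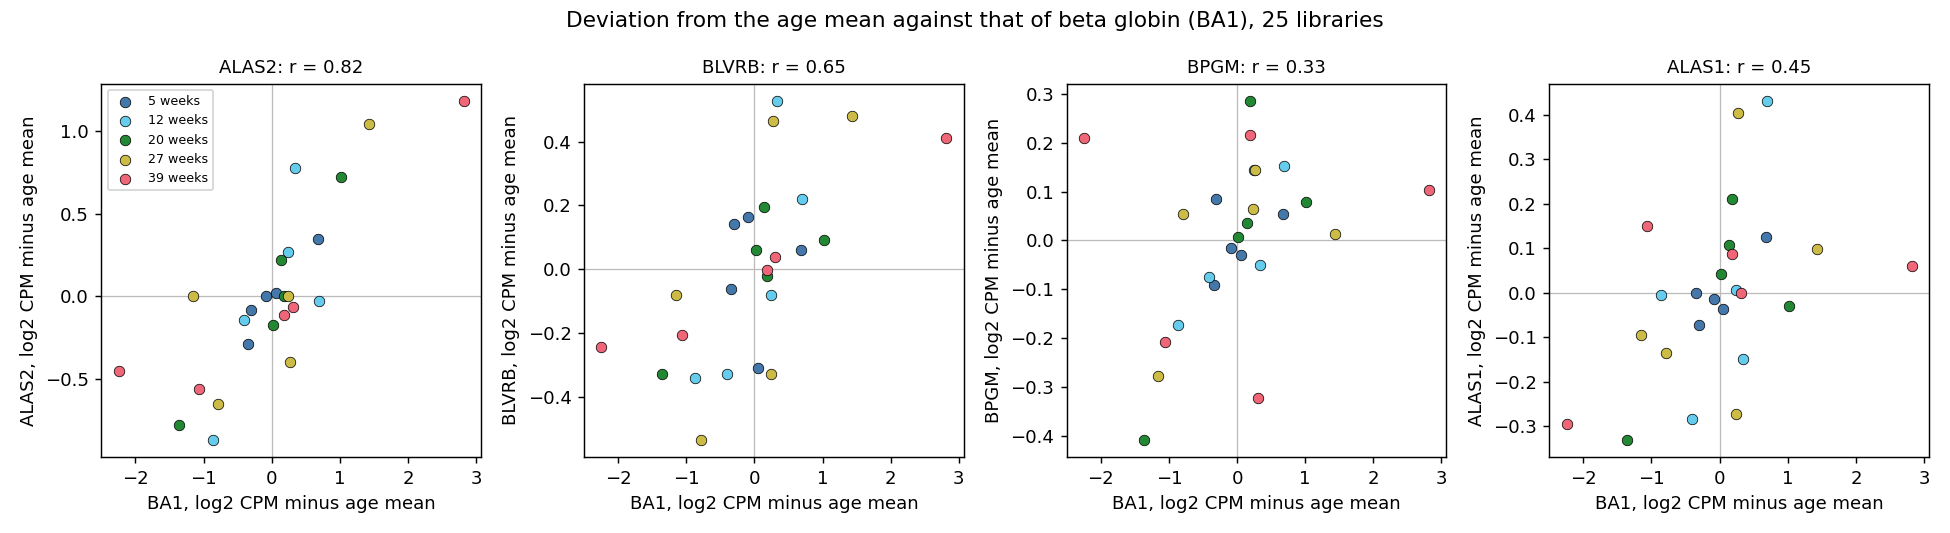
Log2 CPM minus the mean of its age for ALAS2, BLVRB, BPGM and ALAS1 (y axes) against the same for BA1 (x axes), 1 point per library, colored by age, 25 libraries in each panel. ALAS2 (r = 0.82) and BLVRB (r = 0.65) rise with BA1, while BPGM (r = 0.33) and ALAS1 (r = 0.45) did not pass the test over 21 pairs.

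BLVRB was the other gene whose relation with the globin passed the adjusted test. Its within-age r with BA1 was 0.655 (rho 0.708, permutation p = 0.00043 and 0.00057, adjusted 0.0045 and 0.006), and with ALAS2 it was 0.69 (rho 0.607, adjusted p = 0.0059 and 0.034). Without the 2 libraries farthest in BLVRB, JM66 and JM109, r with BA1 was 0.682, and without those farthest in ALAS2, JM18 and JM69, r with ALAS2 was 0.579. Without JM18 alone, a run chosen after seeing the data, r of BLVRB and ALAS2 was 0.644 (adjusted p = 0.044) with a rho that no longer passed (0.549, adjusted p = 0.1). Without the marked libraries neither passed (r = 0.563 and 0.61, both with adjusted p = 0.0785). BLVRA did not share this pattern by the test (r with BA1 0.183, adjusted p = 0.52). For ALAS1 the r with BA1 was 0.45 (permutation p = 0.033, adjusted 0.14), which did not pass. Neither the difference between the 2 reductases nor that between BLVRB and ALAS1 was tested.

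For BPGM a relation with BA1 within an age did not pass the test. Over the 25 libraries without centring its r was 0.697 with BA1 and 0.717 with ALAS2, and after centring it was 0.334 and 0.297 (permutation p = 0.24 for both, adjusted 0.38). Without the marked libraries the r of BPGM and BA1 was 0.581 (adjusted p = 0.154). The library lowest in BPGM was also the lowest in BA1 at 5 weeks (JM96), 12 weeks (JM105), 20 weeks (JM75) and 27 weeks (JM52). At 39 weeks BPGM was lowest in JM1 (12.0 CPM) and JM15 (13 CPM), and BA1 in JM12 (2.14 CPM), a brain with 17.4 CPM of BPGM, and JM15 (5.00 CPM). The library highest in BPGM was also the highest in BA1 at 12 weeks (JM107), and not at 5, 20, 27 or 39 weeks. These matches of single libraries were seen in the data and not tested. Whether BPGM and ALAS2 differ in their relation with BA1 was not tested. For the pair of ALAS1 and ALAS2 the centred r was 0.153 (adjusted p = 0.59), and none of the remaining pairs had an adjusted p under 0.05 by either measure.

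The genes most like each member were looked up, as a description, among the 1794 other contigs with a name and a mean of at least 1 CPM. For ALAS2 over the 25 libraries they were BA1 (r = 0.89), ALDOA (1 OF 2), an aldolase of glycolysis (0.88), ADA, adenosine deaminase (0.81), AGAP2 (0.74) and ACLYA (0.73). After centring within age they were BA1 (0.82), ALDOA (1 OF 2) (0.80), BLVRB (0.69), ACVRL1 (0.68) and ADA (0.67). Among all 16483 other contigs tested, named or not, BA1 stood 2nd in likeness to ALAS2 over the 25 libraries and 4th after centring. For BPGM, BA1 stood 498th over the 25 libraries, and the most like were ACSL6, a fatty acid ligase (0.87), AP2A1 (0.84), AP3M2 (0.84), ANXA13 (0.83) and BASP1, a protein of nerve endings and one of the neuronal markers (0.83). Centred, they were C11H3ORF37 (0.69), BASP1 (0.67), ADRA1A (1 OF 2) (0.67), ACSL6 (0.67) and A5HKK7_ORYLA (0.64). For ALAS1 they were C15H11ORF51 (0.88), C13H10ORF32 (0.87), BMPR1BB (0.86), ALPK1 (0.79) and ATP6AP2 (0.79), and centred C15H11ORF51 (0.93), ATP5IA (0.89), 68MP (0.88), BX119910 (0.87) and C13H10ORF32 (0.85). The highest r of ALAS1 with any of the 16483 other contigs was 0.989 over the 25 libraries and 0.984 after centring. Only reads with a single place were counted, so reads that fit a copy named 1 OF 2 and its partner alike would be left out. All these values share the 25 libraries.

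Ratios of counts within a library do not depend on its depth. The log2 ratio of ALAS2 to ALAS1 was -6.33 ± 0.19 (SD, n = 5) at 5 weeks, -6.92 ± 0.69 at 12 weeks and -8.14 ± 0.68 in the oldest brains. All 5 libraries of 39 weeks lay below all 5 of 5 weeks, a difference of -1.81 (two-sided exact permutation test, p = 0.0079, the smallest that 5 against 5 can give, 0.0476 adjusted over 6 ratio comparisons). The difference from 12 to 39 weeks was -1.22 (exact p = 0.0238, adjusted 0.0635), with 4 of 5 older libraries below all younger ones and JM18 within their range. With 1 library fewer the smallest possible p is larger. In 9 of the 10 tests with 1 library left out the first difference had an adjusted p between 0.0714 and 0.0952, in that without JM18 it had 0.019, and its value lay between -2.10 and -1.63.

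**Figure D4:**
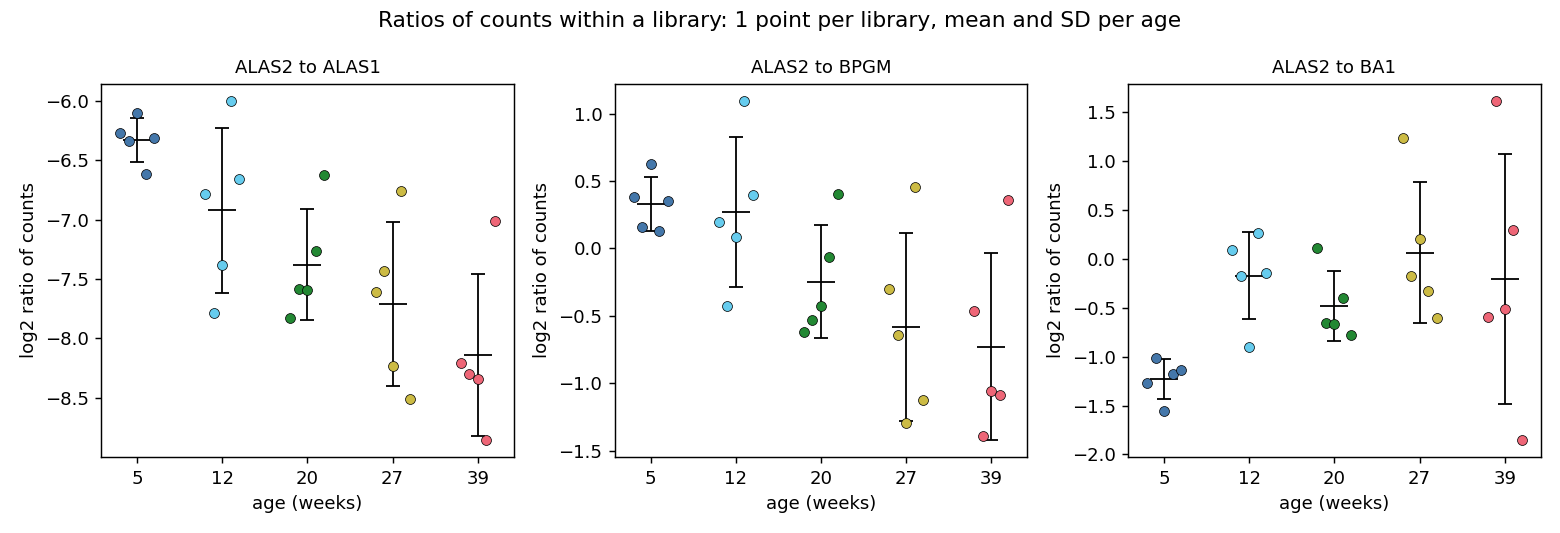
Log2 ratio of counts of ALAS2 to ALAS1, to BPGM and to BA1 (y axes) against age in weeks, 1 point per library, with a bar for mean ± SD of 5 libraries. The ratio to ALAS1 goes from -6.33 to -8.14 and that to BPGM from 0.33 to -0.73 between 5 and 39 weeks, while the ratio to BA1 is lowest at 5 weeks (-1.23).

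The ratio of ALAS2 to BPGM went from 0.33 ± 0.20 at 5 weeks to 0.27 ± 0.55 at 12 weeks and -0.73 ± 0.69 in the oldest brains. Its differences to 39 weeks, -1.06 from 5 weeks and -1.0 from 12 weeks, had exact p = 0.0317 and 0.0476 and adjusted p = 0.0635 and 0.0714, with 4 of 5 older libraries below all younger ones in both. Without JM18, the exception, they were -1.33 and -1.27 (adjusted p = 0.019). For each difference this was the only 1 of 10 tests with 1 library left out that passed. Adjusted p in the others reached 0.127 from 5 weeks and 0.143 from 12 weeks. The ratio of ALAS2 to BA1 took another course. It was -1.23 ± 0.20 at 5 weeks, where each library lay between -1.56 and -1.01, and -0.18 ± 0.44 at 12 weeks, with all 5 libraries above those of 5 weeks. From 12 to 39 weeks it differed by -0.04 with a range at 39 weeks from -1.85 in JM18 to 1.61 in JM12 (exact p = 0.952). Between 5 and 39 weeks it differed by 1.02 (exact p = 0.127, adjusted 0.152). Without JM18 this difference was 1.43 (adjusted p = 0.019), the only 1 of 10 such tests that passed, with up to 0.305 in the others. In counts, the globin thus stood higher against ALAS2 in the 5-week brains than in those of 12 weeks, a step that was not tested.

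The heme genes were set beside 9 genes that carry heme, porphyrins or iron or answer to them. Of these, 8 were deep enough to be tested in edgeR. BMP6, a growth factor of iron control, had 0 to 18 counts per library and was not. DESeq2 did not call it from 5 to 39 weeks (adjusted p = 0.41). Between 5 and 39 weeks 2 of 8 were lower and 2 higher, against 36.9% of all genes in either direction. The porphyrin transporter ABCB6 went from 58.5 ± 5.92 to 48.2 ± 2.13 CPM (log2 fold change -0.28, adjusted p = 0.015, or 0.0549 without JM101), and ACO1, the iron regulatory protein that doubles as aconitase, from 59.9 ± 5.71 to 49.4 ± 4.86 CPM (-0.28, adjusted p = 0.0049). AMBPL, named for the heme-binding alpha-1-microglobulin of plasma, rose from 5.37 ± 1.32 to 9.57 ± 2.36 CPM (0.84, adjusted p = 0.0103). ABCC5, an exporter to which heme transport is ascribed in worms, rose from 9.82 ± 4.21 to 27.5 ± 25.9 CPM (1.48, adjusted p = 0.0436), with 6.09 to 63.4 CPM among the 5 old brains. Its call was lost without JM100, JM101, JM96, JM97, JM1 or JM12 (adjusted p 0.0573 to 0.211), with the mark w0w1 as a factor (0.056) and without the marked libraries (0.228), and without JM1 the log2 fold change was 0.91.

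ABCB10, a transporter of the inner mitochondrial membrane that takes part in heme synthesis of red blood cells in mice, fell early. It stood at 19.0 ± 2.51 CPM in the youngest brains and at 14.6 ± 1.37, 13.8 ± 1.35, 15.0 ± 1.92 and 15.8 ± 2.87 CPM in those of 12, 20, 27 and 39 weeks. The log2 fold changes from 5 weeks were -0.39 to 12 weeks (adjusted p = 0.0229), -0.47 to 20 weeks (0.0051), -0.34 to 27 weeks (0.0308) and -0.27 to 39 weeks (0.0814, or 0.0339 without JM1 and 0.0456 without JM12). The first was lost without JM101, JM96, JM104 or JM113 (up to 0.0754) and the third without JM101, JM96, JM62 or JM72 (up to 0.0973), while the second held without any one library. Without the 6 marked libraries all 3 were lost (0.0665, 0.0559 and 0.0935). From 5 to 12 weeks, the step in which none of the 6 heme genes passed, ABCB10 and ACO1 (-0.22, adjusted p = 0.0366, lost without JM100, JM101, JM103, JM104, JM109 or JM113, up to 0.112) were the 2 of 8 partners called, both lower, where 23.8% of all genes were called. From 5 to 20 weeks 3 of 8 were called (32% of all genes), with AMBPL higher beside these (0.70, adjusted p = 0.0347, lost without JM100, JM101, JM96, JM97, JM75, JM79, JM82 or JM84, up to 0.092), and from 5 to 27 weeks 2 of 8, ABCB6 and ABCB10 (35.6% of all genes). Between 12 and 39 weeks 1 of 8 was called (12.6% of all genes), BACH1 (1 OF 2), a repressor that heme releases from its target genes in mammals. It rose from 15.0 ± 1.66 to 18.5 ± 1.96 CPM (log2 fold change 0.31, adjusted p = 0.0492), and the call was lost in 20 of 25 fits with 1 library left out (up to 0.124), all but those without JM107, JM75, JM52, JM62 or JM13. ABCG2 (1 OF 2) and ATPIF1 (2 OF 2), a porphyrin exporter and an inhibitor of the ATP synthase that heme synthesis of zebrafish red blood cells needs, passed in none of the 10 pairwise comparisons.

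Markers of other cells moved with age as well. The 5 markers of dividing cells summed to a median of 98.3 CPM at 5 weeks and 47.9 CPM at 39 weeks, with none at 0, and all 5 were lower at 12, 20, 27 and 39 weeks than at 5 weeks. Of all genes 16.6% were called lower from 5 to 20 weeks and 18.7% from 5 to 27 and from 5 to 39 weeks. From 5 to 12 weeks 23.8% of all genes were called in either direction. The 8 markers of microglia and leukocytes, 1 of them at 0 in at least 1 library, went from a median sum of 27.7 CPM (22.2 to 34.7) to 55.0 CPM (42.9 to 103). For the 7 red blood cell markers the sum was 572 to 676 CPM at 5 weeks and 457 to 574 CPM at 39 weeks, with none at 0 in any library. Genes that other cells also express make up most of this sum. Means at 5 weeks were 244 CPM for ADD2, 133 CPM for ANK1 (1 OF 2) and 110 CPM for ANK1, beside 69.1 CPM for BA1. The mean of BA1 was 21.4 CPM at 39 weeks. Of the 7 red blood cell markers, 2 were lower at 39 than at 5 weeks, BA1 and ANK1 (1 OF 2), a spectrin anchor (log2 fold change -0.89, adjusted p = 8.5e-05), and 1, ART4, a blood group antigen, was higher (0.85, adjusted p = 0.0364). In that comparison 18.7% of all genes were lower and 36.9% were called in all. The log2 fold change was -0.05 for AQP1, a water channel, 0.04 for ANK1 and 0.01 for ADD2 (adjusted p = 0.904, 0.683 and 0.955), and the median of the 7 was -0.05. The part of these cells in the changes of ALAS2 and BPGM was not tested.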

How the data were processed

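To make the deposited counts, the authors aligned single reads to assembled killifish transcripts with Bowtie and counted, for each contig, the reads with a single place. CASAVA, featureCounts 1.4.3-p1 and TopHat2 2.0.6 are listed in the submitters' processing notes, which give them no role. The authors also deposited RPKM, which divide counts by contig length and depth. These tied names to contigs and gave an alternative for the ratios. Contig lengths implied by the deposited RPKM and counts did not suit some genes (448.6 bases for ALAS2, 5415 for BLVRA) and may belong to neighboring rows, so RPKM levels were not compared between genes. Where CPM of different genes stand side by side, they are shares of counts and are not corrected for contig length. The shares by which names were tied do not depend on the length used. Names came from the held part of the study's gene list, where the shares of mean RPKM at the 5 ages matched 1 contig to within 3e-06 (1994 of 1999 names). Contigs have no chromosome position here, and no sequence is shown. A later pair of tables in the series has no names and was not used.

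Counts were scaled by TMM and tested with edgeR 4.0.16 in R 4.3.3 (quasi-likelihood test, filterByExpr, 16484 genes, 16406 for the slope, 1 model of all ages, 10 pairwise comparisons, a joint test of age, and a slope over 20 adult libraries), with Benjamini-Hochberg adjustment over all genes and a threshold of 0.05. Standard errors are the log2 fold change over the root of the test statistic. DESeq2 1.42.0 was run beside it, and the share of all genes it called was not computed. Log2 CPM used a prior count of 2. Ratios had 0.5 added to each count. Permutation tests used SciPy 1.17.1, NumPy 2.4.6, pandas 2.3.3 and Python 3.11.15, and plots matplotlib 3.10.9. The fits were tested on simulated data.

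The labels give each animal as its own sample, and library names such as JM18 are those of the titles. The meaning of the mark w0w1 is not given in the sources used here. Reads were amplified by PCR and carry no molecular identifiers, so they are not independent molecules. The members, lists and tests were chosen with earlier results of these data, and mean RPKM of the study's gene list, known. Named were the 6 heme genes, the 9 heme and iron partners (1 more listed gene is not reported here), the 5 most like genes of ALAS1, ALAS2 and BPGM, and genes of the marker lists. Lists of muscle, blood plasma and liver, and vessel genes were measured too. In the 5-week brains the summed muscle markers reached 473 CPM in 1 library, against 183 CPM or less at other ages; of the tested plasma and liver genes 0 of 4, and of the vessel genes 0 of 4, differed between 5 and 39 weeks at an adjusted p under 0.05 in edgeR (0 and 2 at an unadjusted p under 0.05, and 0 and 1 by DESeq2). In the same comparison, where 36.9% of all genes were called and 18.7% lower, of 7 brain markers 1 was higher and 3 were lower at 39 than at 5 weeks, and of 4 tested muscle markers 1 was higher and 1 lower. Of the 7 tested microglia and leukocyte markers 5 were higher.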

Additional observations from a re-analysis of the deposited data

Results flagged for a closer look

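In 50 groups of 5 libraries (7 genes and 3 ratios at 5 ages), 4 had 1 library far from the other 4 by Dixon's criterion, which chance gives in about 1 of 20 groups. JM69 stood apart in ALAS2 at 27 weeks, with 21.6 CPM against 6.63 to 10.5 CPM in the others. JM18 stood apart at 39 weeks in ALAS2, with 20.7 CPM against 6.12 to 8.66 CPM, and in BA1, with 75.0 CPM against 2.14 to 13.1 CPM, so that the same brain was high in the erythroid synthase and in the globin. JM52 stood apart in ALAD at 27 weeks, with 12.7 CPM against 24.6 to 28.9 CPM.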

How the results depend on the processing

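The planned settings were other size factors (RLE, library totals), no filter on low counts, DESeq2, the mark w0w1 as a factor or without its 6 libraries, and each library left out in turn. Chosen after seeing the data, correlations were also run without JM18. Shares of all genes called were computed for the main edgeR fit only, not for the other settings. The later count table was not run, since it shares no identifier with the names. No paired analysis was possible because the ages share no replicate numbers.

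The number of heme genes called was 2 from 5 to 39 weeks and for age as a whole under the 6 settings other than leave-one-out, and 2 to 3 when single libraries were left out. From 5 to 12 weeks it was 0, 1 with DESeq2, and 0 to 2 without single libraries. From 12 to 39 weeks it was 2, 1 with the mark as a factor and 1 without the marked libraries, and 0 to 2 without single libraries, with 0 without JM109 or JM15. For the adult slope it was 1, 2 with DESeq2, 0 without the marked libraries and 0 to 2 without single libraries; the slope of ALAS2 without the marked libraries was -0.48 (adjusted p = 0.0949). The ALAS2 call from 5 to 20 weeks was lost without JM100, JM101, JM103 or JM97 of 5 weeks, JM104, JM107 or JM113 of 12 weeks, JM75, JM79, JM82 or JM84 of 20 weeks, JM52 or JM62 of 27 weeks, or JM1 or JM13 of 39 weeks (adjusted p 0.0511 to 0.12). The BPGM call from 12 to 39 weeks was lost with the mark as a factor (adjusted p = 0.0555), without the marked libraries (0.123), and without JM101, JM96, JM97, JM104, JM107, JM109, JM113, JM82, JM84, JM62, JM66, JM69, JM1 or JM15 (0.0505 to 0.133). Among partners, ACO1 from 5 to 12 weeks was lost with the mark as a factor (0.0551), AMBPL from 5 to 20 weeks without the marked libraries (0.0851), and BACH1 (1 OF 2) from 12 to 39 weeks with both, with RLE size factors and with no filter (0.0517 to 0.137).

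Without the marked libraries the difference of the ALAS2 to ALAS1 ratio from 5 to 39 weeks was -1.85 (adjusted p = 0.171); fewer libraries raise the smallest possible p. With single libraries left out it lay between -2.10 and -1.63, and from 12 to 39 weeks between -1.50 and -0.99. The ALAS2 to BPGM ratio lay between -1.33 and -0.89 from 5 weeks and between -1.27 and -0.79 from 12 weeks, and the ALAS2 to BA1 ratio between 0.56 and 1.43 from 5 weeks. From 12 to 39 weeks the latter, near 0, lay between -0.49 and 0.37 and turned its sign without JM104 (0.028), JM109 (0.073), JM1 (0.058), JM13 (0.040) or JM18 (0.37). The within-age r of ALAS2 and BA1 was 0.739 without JM18, 0.659 with JM69 and JM105 also left out, and 0.846 without the marked libraries. The cause of these shifts was not tested. Low depth limits BLVRA and BLVRB, with 78 to 259 counts per library.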
